A study of Mus musculus with 37 samples.

Results

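The 9 complement genes C4b, C3, C1qa, C1qb, C1qc, C1ra, C1s1, Serping1 and Cd59a were followed through astrocytes of the mouse hippocampus after controlled cortical impact (CCI), out of 21975 gene identifiers in the tables. All 9 members were found by their symbols and Ensembl identifiers. The list was selected by name, from earlier results on these same libraries, and which comparison brought C4b onto it is not recorded. The fold changes and p-values of the members are therefore given as a description of these libraries.

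Complement is a cascade of proteins that tags cells, debris and synapses for removal. In its classical pathway the recognition molecule C1q carries the proteases C1r and C1s, C1s cleaves C4 and C2, and the resulting convertase cleaves C3, the step at which all complement pathways meet. C1 inhibitor, encoded by Serping1, blocks C1r and C1s, and CD59 blocks the terminal pore. In brain, C1q comes mainly from microglia, and C4 and C3 are known as genes that reactive astrocytes express.

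The mice were adult males, named CD1 in the methods of the study and WT CD31 in the labels, and no group carried an engineered allele. Sham mice had a craniectomy without impact, and CCI mice had the impact over the right parietal cortex. Every mouse, sham included, carried an EEG electrode, and CCI mice were classed as PTE+ when repeated epileptic episodes were recorded and as PTE- when they were not. At 4 months after injury, cells were captured from each hippocampus with ACSA-2 beads, which bind an astrocyte surface antigen, and 37 bulk libraries were sequenced from 20 mice. The hippocampus opposite the impact (contralateral) was represented by 5 sham, 10 PTE- and 5 PTE+ libraries, and the hippocampus under it (ipsilateral) by 5 sham, 8 PTE- and 4 PTE+ libraries. Both sides were present for 17 mice, 5 of them sham, 8 PTE- and 4 PTE+. Mouse names start with a8 or a9, and what this prefix stands for is not stated.

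Summed counts ran from 25371887 to 55333329 in the contralateral libraries and from 36925501 to 59846479 in the ipsilateral ones. All 14 astrocyte markers were above 3 counts in every library, and Gfap, Aqp4 and Slc1a3 were never at that floor. The PTE- library a8_11 of the ipsilateral side stood apart, with 9020 genes detected and 2234 genes that are abundant elsewhere at 3 counts or fewer, against a median of 6.0 such genes in its hemisphere. Its 14 astrocyte markers summed to 7025 TPM, the lowest of all libraries, with the next at 14440 TPM in ipsilateral PTE- a9_12. Markers of other cells were also present. Of the fibroblast and meningeal markers, Dcn was above 3 counts in all libraries, whereas Col3a1 was at 3 counts or fewer in 9 and Lum in 7. The perivascular macrophage markers were at 3 counts or fewer in 21 (Pf4, F13a1 and Cbr2) to 37 libraries (Lyve1). Most of them were thus present in part of the libraries. In bulk RNA of this kind, fewer cells of a type and less RNA per cell cannot be told apart. The spread between mice of a group was wide, with a common biological coefficient of variation of 1.32 contralaterally and 1.40 ipsilaterally.

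In TPM, a unit of transcript abundance scaled for length and depth, Serping1 was the highest of the members, with a median of 60.3 TPM over the 37 libraries and a range of 15.4 to 359.6 TPM. C1qb followed at a median of 56.4, C1qa at 52.7, C4b at 52.3 and C1qc at 47.7 TPM, and the ranges of these 5 genes overlapped throughout. Cd59a, at a median of 24.2 TPM, and C3, at 8.96 TPM, were lower. The protease genes C1ra and C1s1 both had a median of 0.01 TPM. C4b and Serping1 were above 3 counts in all 37 libraries, Cd59a in 36, C1qa in 34, C3, C1qb and C1qc in 32, C1s1 in 18 and C1ra in 17. C4b, Serping1 and Cd59a could thus be measured in nearly every library, whereas C1ra was at 3 counts or fewer in 20 and C1s1 in 19 of 37 libraries.

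C4b (ENSMUSG00000073418; GRCm38 chr17:34728380-34743882, minus strand) encodes complement component 4, which C1s cleaves and which becomes part of the C3 convertase. Its neighbour C4a is a near copy. In the GENCODE M21 transcripts, 35.2% of the 50-base windows of C4b occur letter for letter in C4a. The share is 23.5% for 75-base windows and 16.5% for 100-base windows. Reads were sequenced as pairs of 100 bases, and the windows do not take the pairing into account. No gene in the tables was found under the symbol C4a, and C4a is not analysed here. How reads from the shared windows were assigned is not known here, so the level of C4b is uncertain to that extent. A stretch where the copies can be told apart is shown to make the point, with the 13 differing bases in capitals, from bases 2761 to 2820 of the C4b transcript and 2755 to 2814 of the C4a transcript.
C4b: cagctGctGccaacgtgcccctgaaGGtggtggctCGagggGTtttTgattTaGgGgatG
C4a: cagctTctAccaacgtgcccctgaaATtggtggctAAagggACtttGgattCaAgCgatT

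C4b stood highest in the ipsilateral hippocampus of injured mice, with or without seizures. In CPM, counts scaled to depth with TMM factors over all 37 libraries, the 5 ipsilateral sham libraries held 58.5, 68.7, 138, 143 and 173 CPM. The 8 ipsilateral PTE- libraries ran from 130.5 CPM in a8_14 through a median of 356 to 658 CPM in a9_16, and the 4 ipsilateral PTE+ libraries held 131, 215, 338 and 483 CPM. All but the lowest PTE- library and all but the lowest PTE+ library lay above every sham library, so each injured group overlapped the shams through a single mouse. On the contralateral side the 5 sham libraries held 37.8, 85.1, 116, 147 and 151 CPM and the 5 PTE+ libraries 52.8, 134, 138, 153 and 227 CPM. The 10 contralateral PTE- libraries ran from 47.9 through a median of 169 to 349 CPM. Here 7 of 10 PTE- libraries and 2 of 5 PTE+ libraries lay above every sham library, and all 3 groups overlapped.

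**Figure D1:**
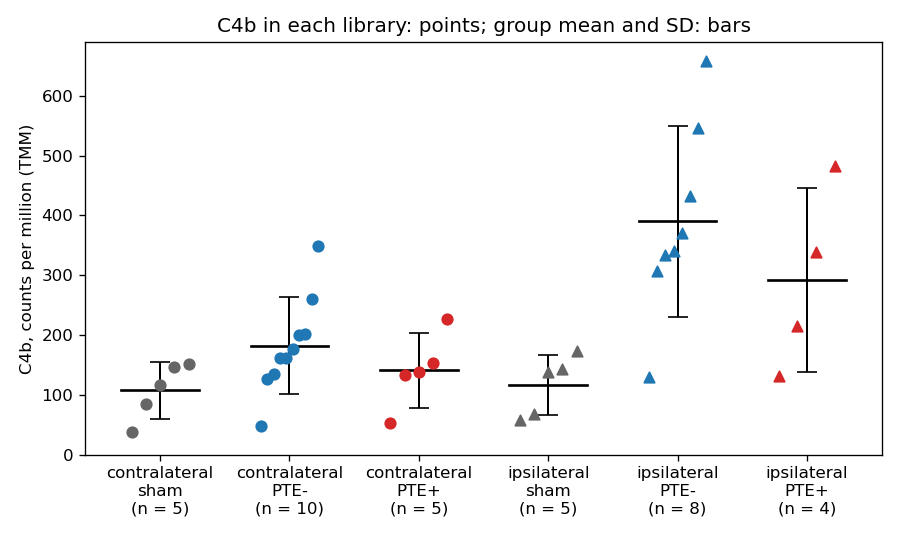
C4b in each library, in CPM (vertical axis), by group and hemisphere, with the mean and SD of each group. The ipsilateral PTE- libraries lie between 130.5 and 658 CPM, and 7 of 8 are above all 5 ipsilateral sham libraries, which end at 173 CPM.

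Ordered by mean, C4b was 107 ± 47.1 CPM (SD, n = 5) in contralateral sham, 116.5 ± 50.3 (n = 5) in ipsilateral sham, 141 ± 62.1 (n = 5) in contralateral PTE+, 182 ± 81.0 (n = 10) in contralateral PTE-, 292 ± 153 (n = 4) in ipsilateral PTE+ and 390.0 ± 159.7 CPM (n = 8) in ipsilateral PTE-. The widest step between neighbours, 109.8 CPM, was between contralateral PTE- and ipsilateral PTE+. That step is larger than the SD of the first and smaller than the SD of the second, and no other neighbours differed by more than either of their SDs. In TPM the same ends held, with 42.8 ± 9.35 TPM in contralateral sham and 125 ± 46.8 TPM in ipsilateral PTE-.

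In the ipsilateral hippocampus, C4b was higher in PTE- than in sham by 1.74 on the log2 scale (SE 0.41), with an unadjusted p of 0.000427 in edgeR's quasi-likelihood test, the second smallest among 14903 genes tested. After Benjamini-Hochberg adjustment over those genes p was 1 in edgeR, so C4b did not pass the test. DESeq2 on the same counts gave a difference of 1.82 with an adjusted p of 0.0122 and called C4b, whereas limma voom gave an adjusted p of 0.171 and the other settings and leave-one-out fits 0.69 or more. Of all genes in this comparison 1.58% had an unadjusted p under 0.05, and of the 9 members 1 did, which was C4b. At an adjusted p under 0.05 the share was 0% of all genes and 0 members. An exact two-sided permutation of the mice over the log2 values gave p = 0.00311, where 0.000777 is the smallest this design allows. Among a9 mice the difference was 2.07 (5 against 3 mice, exact permutation p = 0.0179, the smallest possible), and among a8 mice it was 1.16 (3 against 2, exact permutation p = 0.3). Leaving out library a8_11 left the difference at 1.78.

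In the same hippocampi, C4b was higher in PTE+ than in sham by 1.33 on the log2 scale (SE 0.45, unadjusted p = 0.00815 and adjusted p = 1 in edgeR), and 3 of 4 PTE+ libraries lay above every sham. Here 1.66% of all genes and 1 member, C4b again, had an unadjusted p under 0.05, and 0% of genes and 0 members an adjusted one. The exact permutation p was 0.0556. Without the PTE+ mouse a9_18 the difference was 0.97, with an unadjusted p of 0.0514 in edgeR. Between PTE+ and PTE- the ipsilateral difference was -0.42 (SE 0.41, unadjusted p = 0.326 in edgeR), which is about its own standard error. In that comparison 1.75% of all genes and 0 members had an unadjusted p under 0.05, and 0% and 0 an adjusted one. All 3 comparisons of a hemisphere share their libraries pairwise, so the 2 injured groups are set against the same 5 shams.

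Contralaterally, C4b differed from sham by 0.77 in PTE- (SE 0.39, unadjusted p = 0.0614 in edgeR; exact permutation p = 0.0952) and by 0.40 in PTE+ (SE 0.43, unadjusted p = 0.367 in edgeR; exact permutation p = 0.429). PTE+ and PTE- differed by -0.37 (SE 0.38, unadjusted p = 0.348 in edgeR). In edgeR, an unadjusted p under 0.05 was met by 1.54% of all genes in PTE- versus sham, 1.23% in PTE+ versus sham and 2.21% in PTE+ versus PTE-, and by 0 members in each. There, an adjusted p under 0.05 was met by 0% of genes in both comparisons with sham and 0.00683% (1 gene, not a member) in PTE+ versus PTE-. For PTE- versus sham, C4b did have an unadjusted p under 0.05 in DESeq2 and in limma voom. Of all genes, 2.5% and 4.17% had such a p in these 2 fits. Neither fit gave C4b an adjusted p under 0.05. Within prefixes, PTE- versus sham was 0.33 in a8 and 1.05 in a9 mice, PTE+ versus sham was -0.61 in a8 and 1.08 in a9 mice, and PTE+ versus PTE- was -0.93 in a8 and 0.03 in a9 mice. The direction against sham was thus not shared by both prefixes in contralateral PTE+ mice. Ipsilaterally, PTE+ versus sham was 1.62 in a8 (a single PTE+ mouse) and 1.18 in a9 mice, and PTE+ versus PTE- was 0.46 in a8 and -0.90 in a9 mice.

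Comparing the sides of the same mouse, C4b was higher ipsilaterally in 7 of 8 PTE- mice, with log2 differences of 0.51, -0.30, 1.17, 1.04, 0.64, 0.95, 3.15 and 1.70. In the 4 PTE+ mice the differences were 1.29, -0.03, 1.09 and 0.48, and in the 5 sham mice -0.75, 0.24, -0.12, 0.75 and 0.62. Differences over 1 occurred in injured mice of both kinds and in no sham mouse. The fitted differences between sides come from the main fit, which did not pair the libraries of a mouse, whereas the permutation of sides did. In PTE- mice the fitted difference was 1.06 (SE 0.34, unadjusted p = 0.00404 and adjusted p = 0.545 in edgeR; exact permutation of sides p = 0.0156). In this comparison 4.56% of all genes had an unadjusted p under 0.05, as did 2 members, C4b and Serping1, and 0% of genes and 0 members had an adjusted one. The fitted difference was 0.84 in PTE+ (SE 0.48, unadjusted p = 0.0917 in edgeR) and 0.12 in sham (SE 0.43, unadjusted p = 0.786 in edgeR), where 2.93% and 2.05% of all genes and 0 members had an unadjusted p under 0.05, and 0% and 0 an adjusted one. With 4 pairs the exact permutation p was 0.25 in PTE+ and could not go below 0.125. It was 0.688 in sham. With the mouse as a block in the edgeR fit, 2.0% of all genes and 2 members had an unadjusted p under 0.05 in PTE- mice. The shares were then 0.763% in PTE+ and 0.331% in sham mice, with 0 members in each.

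**Figure D2:**
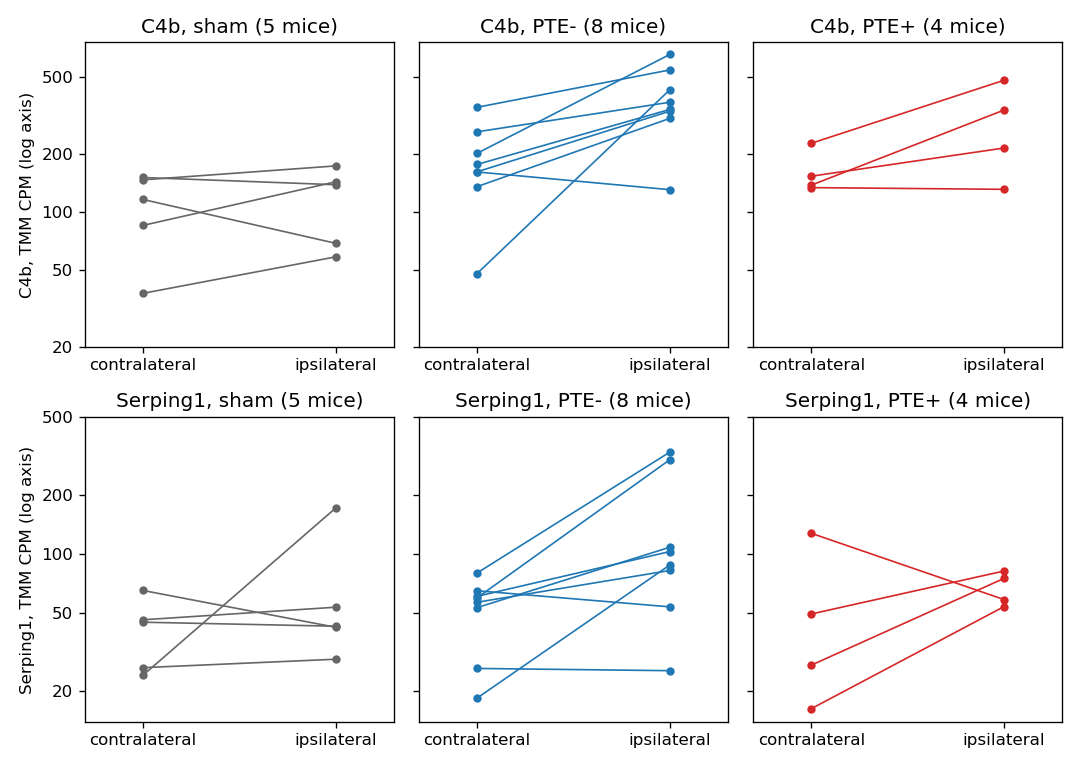
Each line joins the contralateral and the ipsilateral library of 1 mouse, in CPM on a log axis, for C4b and Serping1. For C4b, 7 of 8 PTE-, 3 of 4 PTE+ and 3 of 5 sham mice are higher on the ipsilateral side, and for Serping1 6 of 8 PTE- mice are.

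Whether the effect of injury on C4b differed between the sides was tested directly, in the same fit without pairing by mouse. The PTE- versus sham difference was larger ipsilaterally by 0.94 (SE 0.55, unadjusted p = 0.0951 in edgeR), the PTE+ versus sham difference by 0.72 (SE 0.65, p = 0.271 in edgeR), and PTE+ versus PTE- differed between sides by -0.22 (SE 0.59, p = 0.71 in edgeR). Over the 9 members and 3 such contrasts, 0 of 27 tests had an unadjusted p under 0.05. Of all genes, 3.13%, 2.66% and 2.94% had such a p in these contrasts, in the order given. With the mouse as a block, 0 members had such a p in each of the 3 contrasts, against 1.07%, 0.591% and 1.16% of all genes. At such shares, 0 of 9 members says little about the members. A difference in C4b response between hemispheres was therefore not shown.

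C4b levels ran alongside those of reactive astrocyte genes, a list of 13 genes including Gfap. The summed level of this list was 732 to 1630 TPM in ipsilateral sham, 1288 to 3528 TPM in PTE- and 927 to 1982 TPM in PTE+ libraries. Over the 17 ipsilateral libraries, each from a different mouse, the Spearman rho between C4b and the summed list was 0.82. Pearson r was 0.77 on log2 values and 0.82 without the 2 libraries farthest from the median, and rho was 0.81 within the 8 PTE- libraries. These libraries differed in depth and in genes detected, which the coefficients do not account for. Over the 20 contralateral libraries rho with the list was 0.27. Against Gfap alone rho was 0.78 ipsilaterally and 0.50 contralaterally. Against the summed 14 astrocyte markers, which include Gfap, it was -0.43 ipsilaterally and 0.26 contralaterally, and the median of that sum was 23129 TPM in ipsilateral sham, 16462 TPM in PTE- and 18688 TPM in PTE+ libraries. Against summed microglial markers rho was 0.15 and -0.29. Against fibroblast and meningeal markers, whose sum spanned 940 to 2817 TPM in ipsilateral sham, 803 to 19121 TPM in PTE- and 2420 to 4774 TPM in PTE+ libraries, rho was 0.65 ipsilaterally and 0.08 contralaterally. By median TPM the largest of these markers were Ptgds (1394.9) and Igfbp2 (653.3), against 3.03 (Col1a1) to 81.7 (Dcn) for the others. The sum is thus weighted to these 2 genes. The part of the cells that express these markers in the C4b difference was not tested.

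C1q is built from 3 chains, encoded side by side by C1qa (ENSMUSG00000036887; chr4:136895917-136898803), C1qb (ENSMUSG00000036905; chr4:136880129-136886187) and C1qc (ENSMUSG00000036896; chr4:136889804-136893065), all on the minus strand of GRCm38. Because the 3 genes moved together, the RefSeq sequence upstream of their starts is shown where the table of promoters had an entry, which was for C1qb and C1qc. Capitals mark GAGGAA on either strand, the core letters bound by the myeloid factor PU.1. C1qb is given for 250 bases at GRCm38.p6 chr4:136886201-136886450 and C1qc for the 99 bases at chr4:136893066-136893164, both minus strand.
C1qb: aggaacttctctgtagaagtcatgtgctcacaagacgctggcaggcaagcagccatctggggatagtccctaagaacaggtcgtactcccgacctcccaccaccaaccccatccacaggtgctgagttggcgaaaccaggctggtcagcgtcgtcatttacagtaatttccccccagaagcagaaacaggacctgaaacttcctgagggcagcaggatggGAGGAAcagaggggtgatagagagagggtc
C1qc: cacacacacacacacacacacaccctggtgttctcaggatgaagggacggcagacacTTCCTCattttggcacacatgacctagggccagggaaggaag
The letters begin 30 bases before the RefSeq start of C1qb on the sense strand and 193 bases before that of C1qc on the opposite strand. They occur in 23.3% of 32851 promoter windows of 250 bases and in 9.9% of windows of 99 bases, so a match is common. Among the other members with an entry, the window of Cd59a held the letters and those of C3, C1ra and C1s1 did not.

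The C1q genes varied widely between mice of a group. In ipsilateral sham, C1qa was at 1.13, 15.6, 36.9, 66.4 and 68.4 CPM. In ipsilateral PTE- it ran from 8.18 through a median of 38.3 to 172 CPM, the last in a8_11, and in the 4 ipsilateral PTE+ libraries it was at 0, 0, 24.4 and 35.7 CPM. The PTE+ libraries at 0, a9_17 and a9_19, also had 0 counts of C1qb and C1qc, and their mice had C1q counts on the other side. For ipsilateral PTE+ versus PTE-, C1qa had an unadjusted p under 0.05 in limma on log2(TPM + 1) (p = 0.0219) and in limma voom (p = 0.0311), lower in PTE+, but not in edgeR or DESeq2, and no adjusted p was under 0.05. Contralateral C1qa was at 3.47, 12.2, 27.9, 29.3 and 34.7 CPM in sham, at 21.5, 21.7, 34.1, 41.5 and 73.5 CPM in PTE+, and from 0 through a median of 18.1 to 141 CPM in PTE-. Within each hemisphere every group overlapped every other.

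C1qb and C1qc followed the same libraries. C1qb averaged 47.1 ± 32.2 CPM (SD, n = 5) in ipsilateral sham, 86.2 ± 136 (n = 8) in PTE- and 29.4 ± 42.1 (n = 4) in PTE+, and 24.6 ± 18.5, 56.8 ± 85.5 and 39.3 ± 25.9 CPM (n = 5, 10 and 5) contralaterally. C1qc averaged 35.8 ± 26.1, 58.5 ± 58.8 and 22.4 ± 32.0 CPM ipsilaterally and 22.2 ± 17.3, 40.5 ± 51.4 and 45.6 ± 27.9 CPM contralaterally. Many of these SDs were close to or above their means. Both genes reached their highest value in ipsilateral PTE- a8_11, at 414 CPM for C1qb and 182 CPM for C1qc. That library, the one with few genes detected, held 971 TPM of C1q in all against 255 TPM of microglial markers, of which 5 of 15 were above 3 counts. Over the ipsilateral libraries the Spearman rho was 0.84 between C1qa and C1qb, 0.93 between C1qa and C1qc and 0.87 between C1qb and C1qc, and over the contralateral ones 0.73, 0.46 and 0.75.

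The C1q genes also followed the microglial markers, 15 genes whose sum spanned 144 to 1295 TPM in ipsilateral sham, 196 to 1022 TPM in PTE- and 92.8 to 682 TPM in PTE+ libraries, and 176 to 864, 35.4 to 1225 and 482 to 899 TPM contralaterally. Between 2 and 15 of the 15 markers were above 3 counts in a library, and P2ry12 and Tmem119, which define microglia, were at 3 counts or fewer in 4 libraries each. Over the contralateral libraries rho with this sum was 0.89 for C1qa, 0.83 for C1qb and 0.58 for C1qc, and over the ipsilateral ones 0.71, 0.71 and 0.74. Pearson r without the 2 farthest libraries was 0.90, 0.54 and 0.34 contralaterally and 0.76, 0.69 and 0.80 ipsilaterally. Within the 8 ipsilateral PTE- libraries rho was 0.38, 0.33 and 0.43. How far microglial RNA set the C1q values was not tested.

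**Figure D3:**
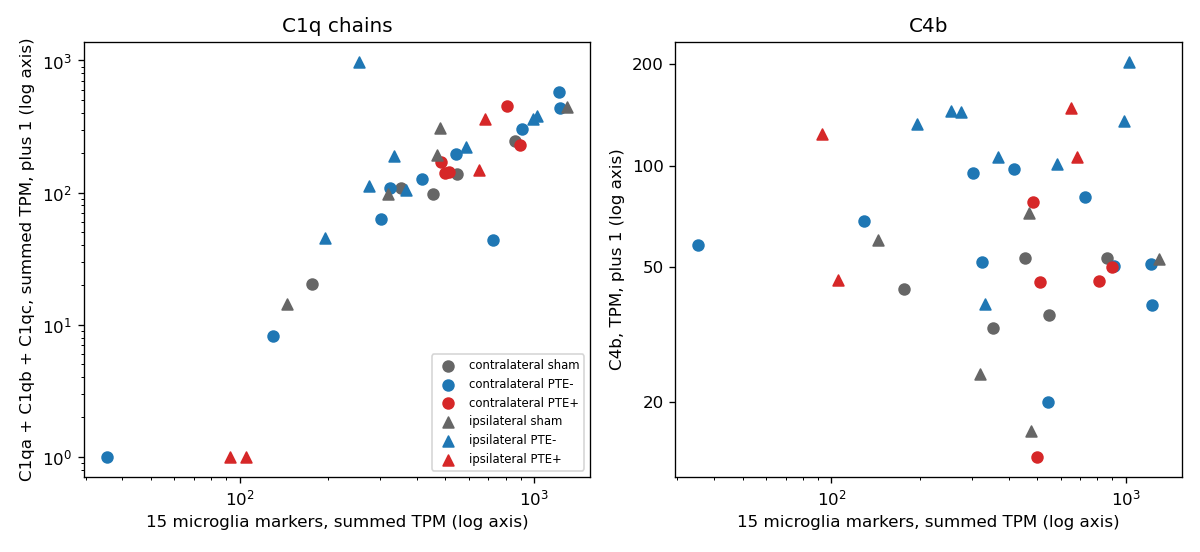
The summed TPM of the C1q genes (left) and the TPM of C4b (right), each plus 1 on a log axis, against the summed TPM of 15 microglial markers (log axis), with 1 point for each of the 37 libraries. C1q rises along the markers, with the ipsilateral PTE- library a8_11 far above the others at its marker level, and C4b does not.

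C1ra (ENSMUSG00000055172; chr6:124512405-124523443, plus strand) and C1s1 (ENSMUSG00000038521; chr6:124530345-124542359, minus strand) encode the proteases of the C1 complex. Both have near copies, C1rb and C1s2, between which the counting divides shared reads, and C1s1 overlaps an antisense gene, Gm16567, whose reads cannot be told apart without strand. C1ra was above 3 counts in 6 of 8 ipsilateral PTE- libraries, at 0, 0, 1.70, 4.21, 12.6, 12.7, 21.6 and 85.0 CPM. It was above 3 counts in 1 of 5 ipsilateral sham libraries (3.21 CPM) and 1 of 4 ipsilateral PTE+ libraries (3.47 CPM), and contralaterally in 1 of 5 sham, 5 of 10 PTE- and 3 of 5 PTE+ libraries, with maxima of 2.22, 13.3 and 13.7 CPM. Detection of C1ra was thus most frequent in the ipsilateral PTE- group, which still held libraries at 0. C1s1 had ipsilateral means of 0.238 ± 0.391 CPM (n = 5) in sham, 3.94 ± 5.12 (n = 8) in PTE- and 4.57 ± 8.73 (n = 4) in PTE+, and contralateral means of 0.643 ± 1.17, 2.4 ± 5.28 and 2.69 ± 5.87 CPM. The ipsilateral PTE+ mean came from a single library at 17.7 CPM. Summed fibroblast and meningeal markers had rho of 0.59 with C1ra and 0.64 with C1s1 ipsilaterally, and of -0.20 and 0.09 contralaterally. That sum is weighted to Ptgds and Igfbp2, as given above, and its part in these values was not tested.

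C3 (ENSMUSG00000024164; chr17:57203970-57228136, minus strand) is the central component whose cleavage marks surfaces for uptake. In ipsilateral sham it was at 0.0261, 4.07, 4.08, 36.97 and 121 CPM. The ipsilateral PTE- libraries ran from 3.23 through a median of 70.8 to 287 CPM, and the PTE+ libraries were at 3.29, 55.7, 87.9 and 129 CPM. The sham library at 121 CPM lay within the range of both injured groups. Contralateral means were lower, at 18.4 ± 17.04 CPM (n = 5) in sham, 21.7 ± 22.1 (n = 10) in PTE- and 17.1 ± 15.2 (n = 5) in PTE+. Between sides of a mouse, C3 was higher ipsilaterally in 4 of 4 PTE+ mice, by 1.72 to 2.99 on the log2 scale, in 7 of 8 PTE- mice and in 2 of 5 sham mice. None of these comparisons reached an unadjusted p under 0.05 for C3 in edgeR. In DESeq2 the PTE- side comparison did (p = 0.0445), and in limma voom ipsilateral PTE- (p = 0.0148) and PTE+ (p = 0.0207) versus sham did, all with an adjusted p above 0.05. The summed ependymal and choroid plexus markers, 125 to 10642 TPM over the ipsilateral libraries, had rho of 0.59 with C3 there and 0.66 contralaterally, and their part was not tested.

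Serping1 (ENSMUSG00000023224; chr2:84765387-84775444, minus strand), the inhibitor of C1r and C1s, was the only member besides C4b with an unadjusted p under 0.05 in edgeR in any comparison. The ipsilateral PTE- libraries ran from 25.4 through a median of 95.7 to 333 CPM and the contralateral ones from 18.4 through 60.4 to 226 CPM. Ipsilateral sham libraries held 29.1, 42.3, 42.8, 53.6 and 172 CPM and ipsilateral PTE+ libraries 54.0, 58.6, 75.3 and 82.1 CPM. Contralaterally sham averaged 41.3 ± 16.8 CPM (n = 5) and PTE+ 51.1 ± 44.6 CPM (n = 5). All groups overlapped, and the PTE+ group had the narrowest spread of the ipsilateral groups. In limma voom, Serping1 was higher in ipsilateral PTE- than in sham by 1.05 (unadjusted p = 0.00466, adjusted p = 0.726). In the same tool it was lower in contralateral PTE+ than in PTE-, by -0.92 (unadjusted p = 0.0228, adjusted p = 0.687). Neither comparison had an unadjusted p under 0.05 in edgeR.

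Within PTE- mice, Serping1 was higher ipsilaterally in 6 of 8 mice, with log2 differences of 2.33, -0.04, -0.27, 1.01, 0.75, 0.53, 2.20 and 2.04. The fitted difference was 1.39 (SE 0.47, unadjusted p = 0.0062 and adjusted p = 0.545 in edgeR; exact permutation of sides p = 0.0313). It did not pass the test over all genes. Without a8_11 it was 1.17, and blocking on the mouse gave 1.08 (unadjusted p = 0.0287 in edgeR). Serping1 had rho of 0.58 with C4b over the ipsilateral and 0.44 over the contralateral libraries. With the summed fibroblast and meningeal markers rho was 0.52 and 0.59. That sum is weighted to Ptgds and Igfbp2, as given above, and its part was not tested.

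Cd59a (ENSMUSG00000032679; chr2:104095801-104115354, plus strand), the membrane inhibitor of the pore that completes on cell surfaces, was above 3 counts in all libraries but 1. It averaged 19.7 ± 5.83 CPM (n = 5) in ipsilateral sham, 29.9 ± 14.4 (n = 8) in PTE- and 30.3 ± 10.9 (n = 4) in PTE+, and 16.2 ± 5.14 (n = 5), 25.5 ± 15.6 (n = 10) and 29.6 ± 8.64 CPM (n = 5) contralaterally. Contralateral PTE- a9_20 was the exception, at 0.0386 CPM, a single count. In contralateral PTE+, 4 of 5 libraries lay above every sham library.

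**Figure D4:**
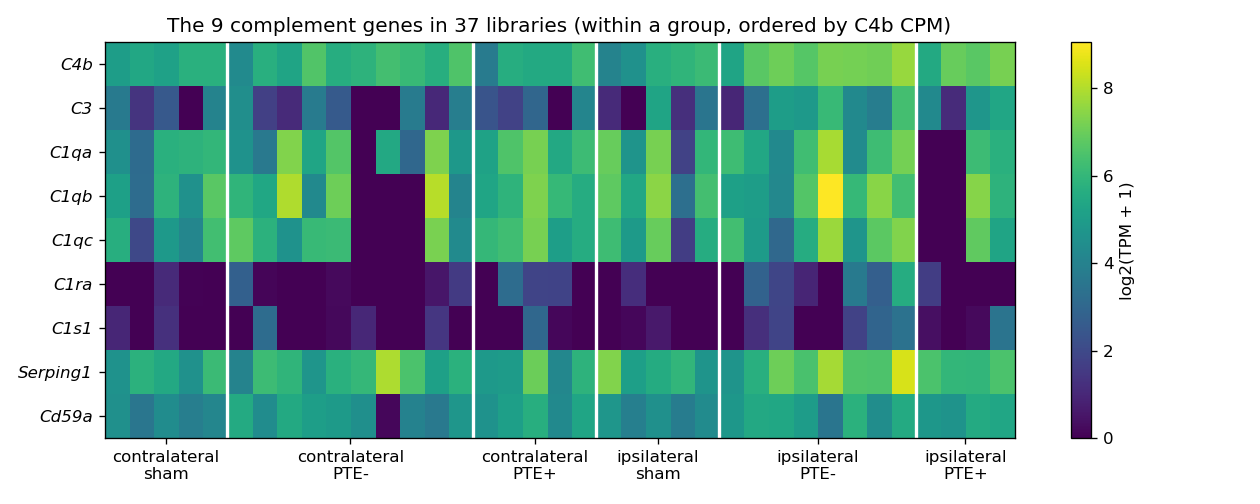
The 9 members (rows) in each of the 37 libraries (columns, by hemisphere and group, and within a group in the order of C4b CPM), coloured by log2(TPM + 1). C4b, Serping1 and Cd59a are present in nearly all libraries, all 3 C1q genes are at 0 in 3 libraries and C1qb and C1qc in 2 more, and C1ra and C1s1 are each at 0 in 17.

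Set side by side, the members were all higher in ipsilateral PTE- than in sham mice without passing the test. In ipsilateral PTE- versus sham, the 8 members other than C4b were all higher, from 0.40 for C1qa to 4.74 for C1ra, with a smallest unadjusted p of 0.0869 in edgeR. The median of the 9 members was 1.01, against 0.02 for all genes, of which 51.5% were higher. The mean log2(CPM + 1) was likewise higher for 9 of 9 members. In contralateral PTE- versus sham the edgeR values of the other 8 were all above 0, from 0.23 for C3 to 2.11 for C1ra (median over the members 0.82 against 0.07), but the mean log2(CPM + 1) was higher for 5 and lower for 4 members, C3 and the C1q genes. The direction contralaterally thus depended on the scale. In PTE- mice the 7 members other than C4b and Serping1 were higher ipsilaterally than contralaterally, from 0.03 for Cd59a to 2.83 for C1ra, and the median of the 9 was 1.06 against -0.03.

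The remaining comparisons were mixed. Ipsilateral PTE+ versus sham had 4 of the other 8 members higher and 4 lower, from -1.33 for C1qa to 4.25 for C1s1 (median of the 9 members 0.44, all genes 0.00). Ipsilateral PTE+ versus PTE- had 2 higher and 6 lower, from -4.30 for C1ra to 0.21 for C1s1 (median -1.03, all genes -0.01). Both contain the 4 PTE+ libraries of which 2 had 0 counts of C1q. Contralaterally, PTE+ versus sham had 7 higher and 1 lower, from -0.10 for C3 to 3.36 for C1ra (median 0.83, all genes 0.03), and PTE+ versus PTE- had 5 higher and 3 lower, from -0.54 for C1qb to 1.26 for C1ra (median 0.06, all genes -0.05). Between sides, sham mice had 7 higher and 1 lower, from -1.42 for C1s1 to 0.93 for C1qb (median 0.69, all genes 0.00), and PTE+ mice 4 higher and 4 lower, from -2.73 for C1ra to 2.01 for C3 (median 0.00, all genes -0.02). A majority of members was thus also higher ipsilaterally in mice that had no impact. The members are not independent of each other, since the C1q genes followed each other.

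**Figure D5:**
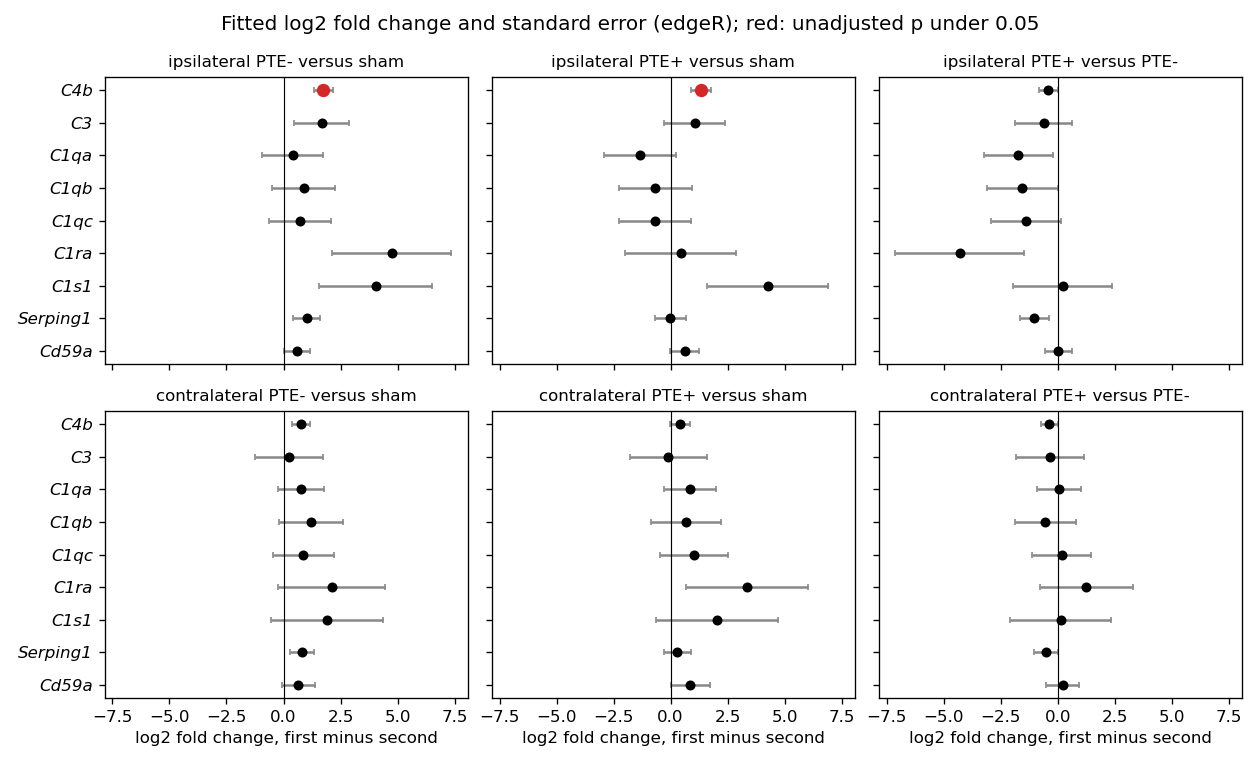
Log2 fold change (edgeR, with SE) of each of the 9 members in the 6 comparisons of groups within a hemisphere, with an unadjusted p under 0.05 in red. Only C4b is red, at 1.74 (SE 0.41) in ipsilateral PTE- and 1.33 (SE 0.45) in ipsilateral PTE+ versus sham, and the bars of C1ra and C1s1 are wide.

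Of 52 further complement genes on 4 lists, 51 were in the tables, all but C4a. Among 13 other genes of the classical and lectin pathways only 1 was above 3 counts in all 37 libraries and 3 were so in none, and among 10 genes of the alternative and terminal pathways none was in all and 4 were in none. Of 11 receptor genes 2, and of 17 regulator genes 3, were above 3 counts in every library. Regulators were the best represented, with 14 of 17 above 3 counts in at least 19 libraries. Clu, which encodes clusterin, an inhibitor of the terminal pore, was the most abundant of the genes named here, at a median of 10441 TPM.

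None of these genes had an adjusted p under 0.05. Of 32 tested ipsilaterally, 2 had an unadjusted p under 0.05 in PTE- versus sham, both higher, 0 in PTE+ versus sham, and 1, lower, in PTE+ versus PTE-. Of 31 tested contralaterally, 1 had one in each comparison, higher in PTE- and in PTE+ versus sham and lower in PTE+ versus PTE-. Between sides, of 34 tested, 0 had one in sham, 1 (lower) in PTE- and 3 (1 higher, 2 lower) in PTE+ mice. The shares of all genes were the 1.23% to 4.56% given above. Counts of 0 to 3 among 31 to 34 genes are too small to say whether the lists differed from these shares.

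Most of these few were genes that appear in some libraries and not in others. C3ar1, the receptor for the C3a fragment, was at 3 counts or fewer in all 5 contralateral sham libraries, above that in 4 of 5 PTE+ libraries (at least 53.4-fold higher by the mean, against a floor of 3 counts per library, or 20.4-fold without a8_10) and in 4 of 10 PTE- libraries (at least 63.2-fold higher, or 11.1-fold without a8_9, which had 2047 counts). C5ar1, the receptor for C5a, was at 0 counts in all 4 ipsilateral PTE+ libraries and above 3 counts in 5 of 8 PTE- libraries, so that PTE- was at least 74.6-fold higher, or at least 25.8-fold without PTE- a9_16. On the other side neither difference was repeated. Ipsilateral C3ar1 was above 3 counts in 1 of 5 sham, 0 of 8 PTE- and 0 of 4 PTE+ libraries. Contralateral C5ar1 was above 3 counts in 2 of 5 sham, 4 of 10 PTE- and 2 of 5 PTE+ libraries. Its means there were 1.04 ± 1.54, 1.25 ± 2.02 and 5.45 ± 8.32 CPM (SD). Both receptors are known from microglia and other myeloid cells, and the microglial sums of these groups are those given above. C1rb, the copy of C1ra, had at most 1 count in ipsilateral sham and more than 3 in 5 of 8 PTE- libraries (at least 13.1-fold higher in PTE-, or 4.42-fold without a9_12).

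Cd59b, the copy of Cd59a, was above 3 counts in 8 of 8 ipsilateral PTE- and 2 of 5 sham libraries, at 26.9 ± 61.0 against 1.14 ± 2.37 CPM. Its difference of 4.57 (SE 2.10, unadjusted p = 0.0428 in edgeR) was 2.26 (unadjusted p = 0.228) without a8_11, the library with few genes detected, and 8.40 (unadjusted p = 0.00433) without sham a9_10. Clu was lower in contralateral PTE+, at 9394 ± 1391 CPM, than in PTE-, at 12886 ± 5274 CPM (log2 difference -0.46, SE 0.21, unadjusted p = 0.0412 in edgeR), and the difference was -0.27 (unadjusted p = 0.0857 in edgeR) without PTE- a8_11. Both differences rested in large part on that mouse.

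The genes whose level varied most like C4b were found by the lower of the Spearman coefficients over the 20 contralateral and the 17 ipsilateral libraries. Of 14386 genes these were Gosr2 (rho 0.58 and 0.67, in that order), Zfp651 (0.57 and 0.57), Stk11ip (0.53 and 0.57), Tmod2 (0.52 and 0.53) and Ccdc190 (0.51 and 0.52). Gfap was at rank 8, Serping1 at rank 19 and Serpina3n at rank 20. These are the highest of 14386 coefficients over few libraries, some of which are high by chance, and they were not tested. For the mean of the C1q genes the 5 most alike of 14384 were Fcer1g (0.83 and 0.80), Ctss (0.79 and 0.91), Cd68 (0.77 and 0.85), Tmem119 (0.74 and 0.78) and Deaf1 (0.72 and 0.77). Ctss and Tmem119 are on the microglial marker list used above, and Fcer1g and Cd68 are likewise known from myeloid cells. No gene followed C4b as closely as these followed C1q.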

How the data were processed

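ACSA-2 bead-selected hippocampal astrocytes from 20 mice gave 37 SMART-Seq V4 libraries. Per the methods and processing notes of the authors, reads were trimmed with Trim Galore 0.6.4 and mapped to mm10 by RSEM 1.2.28 with Bowtie2 2.4.1, and the annotation release is not given in the sources used here. The authors deposited expected counts per gene from RSEM, which in these tables are 100.0% whole numbers, so no rounding changed them. The TPM values deposited by the authors are scaled for transcript length and used here for levels between genes and marker sums only. RSEM divides shared reads between near copies in its annotation, which leaves C1ra and C1rb, and Cd59a and Cd59b, uncertain. How reads shared by C4b and C4a were assigned is not known here. The library kit amplifies from little RNA, and genes with low counts can drop to 0.

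Gene symbols came from the Ensembl identifiers (21856 of 21975 matched), and positions from GENCODE M21. Counts were tested with edgeR 4.0.16 (TMM, filterByExpr, quasi-likelihood) in 1 fit per hemisphere (14642 genes contralaterally and 14903 ipsilaterally) and 1 fit of the 17 mice with both sides (15731 genes), with Benjamini-Hochberg adjustment over all genes tested and a call at an adjusted p under 0.05. Per-mouse side differences and permutation tests used log2(CPM + 1), two-sided. Sides pair by mouse, since both libraries carry the same mouse name. The main fit did not use this pairing, and the fit with the mouse as a block is an alternative. Further alternatives were RLE factors, no filter, 2 groups alone, the name prefix as covariate, DESeq2 1.42.0, limma 3.58.1 (voom with quality weights, and log2(TPM + 1)) and leaving out each library. The fitting code was tested on simulated data. The floor is 3 counts per library and covers counting error only.

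Members and lists were chosen with earlier results of these data known. Named with a fold change and test were C4b in all comparisons, other members where an unadjusted p was under 0.05 or groups did not overlap, and other complement genes with such a p in a comparison of groups. Mice are the replicates. No libraries were left out of the main fits.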

Additional observations from a re-analysis of the deposited data

Results flagged for a closer look

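Among the 54 sets of 1 member in 1 group, 8 held a library whose gap to the next exceeded Dixon's critical value for its group size. The gaps were tested on log2(CPM + 1), whereas the values below are printed in CPM. Chance alone flags some sets of this kind, and the share over all genes was not worked out. C4b was low in 2 PTE- libraries. Contralateral a9_15 stood at 47.9 CPM with the next at 127 CPM, and ipsilateral a8_14 stood at 130.5 CPM with the next at 306 CPM. Cd59a was at 0.0386 CPM in contralateral PTE- a9_20, with the next at 13.04 CPM, and a9_20 had 984 abundant genes at 3 counts or fewer, the most of its hemisphere.

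The other 5 sets were single high libraries of the protease genes, whose remaining libraries lay near 0. C1ra was at 2.22 CPM in contralateral sham a8_15, at 3.21 CPM in the ipsilateral sham library of the same mouse, and at 3.47 CPM in ipsilateral PTE+ a9_17. C1s1 was at 13.2 CPM in contralateral PTE+ a8_10 and at 17.7 CPM in ipsilateral PTE+ a9_18.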

How the results depend on the processing

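C4b in ipsilateral PTE- versus sham stayed between 1.56 and 1.82 under the other settings and between 1.58 and 1.94 when 1 library was left out. In ipsilateral PTE+ versus sham, leaving out 1 library gave 0.97 to 1.57. DESeq2 called C4b in ipsilateral PTE- versus sham (adjusted p = 0.0122), so that 1 member was called, against 0 in edgeR. The direction of C4b turned in contralateral PTE+ versus sham in limma on log2(TPM + 1), at -0.080 (unadjusted p = 0.862), and between the sides of sham mice without a9_11, where leaving out 1 mouse gave -0.042 to 0.288. The cause was not tested.

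The number of members with an unadjusted p under 0.05 moved as follows. In ipsilateral PTE- versus sham it was 1 in edgeR, 2 in DESeq2, 2 in limma on TPM and 5 in limma voom, where 1.58%, 2.85%, 3.14% and 4.95% of all genes had such a p. In ipsilateral PTE+ versus sham it was 1 in edgeR and 2 in limma voom (3.03% of all genes), and in ipsilateral PTE+ versus PTE- it was 0 in edgeR and 4 in both limma fits (3.13% of all genes on TPM and 3.19% in voom), namely C1qa, C1qb and C1ra in both, C1qc on TPM and C4b in voom, all lower in PTE+. Contralaterally it was 0 in edgeR, 1 in DESeq2 (2.5% of all genes) and 1 in limma voom (4.17%) for PTE- versus sham, C4b in both. For contralateral PTE+ versus PTE- it was 1 in limma voom (6.5%), namely Serping1. Between sides of PTE- mice it was 2 in edgeR and 3 in DESeq2 (5.85%), with C3 added. Leaving out 1 library gave 1 to 2 members in ipsilateral PTE- versus sham, 0 (without PTE+ a9_18) to 2 (without sham a8_15) in ipsilateral PTE+ versus sham, and 0 to 1 in ipsilateral PTE+ versus PTE- and in each contralateral comparison. Left aside here are all values of C4b and that of Serping1 between sides of PTE- mice. Of the 71 remaining member values, 23 changed sign in some leave-one-out fit and 19 under another setting.

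With the mouse as a replicate block, the side difference of C4b was 1.09 in PTE- (unadjusted p = 0.00219 in edgeR), 0.71 in PTE+ (p = 0.105) and 0.15 in sham (p = 0.689), the extra side difference of PTE- over sham was 0.94 (p = 0.0669), and no call changed. Over all genes, an unadjusted p under 0.05 was met by 717 genes without and 315 with the block in PTE-, 461 and 120 in PTE+, and 323 and 52 in sham mice.

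Over all genes, DESeq2 made calls where edgeR made 0 or, in contralateral PTE+ versus PTE-, 1. DESeq2 called 19, 63 and 63 genes ipsilaterally (PTE- versus sham, PTE+ versus sham, PTE+ versus PTE-), 26, 31 and 23 contralaterally in the same order, and 132, 253 and 122 between sides in PTE-, PTE+ and sham mice. On log2(TPM + 1) the median of all genes was shifted by up to 0.28 (contralateral PTE+ versus PTE-), so values on that scale are relative to it. Genes at or near 3 counts, C1ra and C1s1 above all, carry little information on fold changes at this depth.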

Other observations

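Outside the rule for named genes, Cd59a in contralateral PTE+ versus sham had an exact two-sided permutation p of 0.0238 and an unadjusted p of 0.31 in edgeR. Over the 54 such permutation tests of the 9 members between groups of a hemisphere, only C4b in ipsilateral PTE- versus sham was also under 0.05. The PTE+ libraries were at 17.6, 27.5, 28.8, 33.0 and 41.4 CPM and the sham libraries at 8.80, 14.8, 15.4, 19.98 and 22.01 CPM. Among the exact permutations of sides, C1ra in PTE- mice had p = 0.0469, besides C4b and Serping1 given above. It was higher ipsilaterally in 6 of 8 mice, with an unadjusted p of 0.171 in edgeR. Cd59a and C1ra are singled out here after their values were seen.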
